A study of Mus musculus with 71 samples.

Results

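The subject here is a group of 7 genes, Gabra2, Gabra3, Gabra4, Gabra5, Gabrb1, Gabrb2 and Gabrd, which encode subunits of the GABA-A receptor. They were taken by gene symbol from tables that list 37681 genes, and all 7 were found in each of the 6 tables. The tables hold RNA-seq, a readout of the amount of RNA from each gene by sequencing, made from micro-punched nucleus accumbens (NAc), ventral tegmental area (VTA) and prefrontal cortex (PFC). The NAc and PFC receive dopamine input from the VTA, and all 3 regions take part in reward learning. Adult wild type C57BL/6 mice had self-administered cocaine or saline through a jugular catheter after earlier training with food, so the saline mice shared the surgery, the operant chambers and the food training. Tissue was taken after 1 day or 28 days of abstinence. Each of the 12 groups, made by treatment, region and day, had 6 libraries, except the saline VTA at day 28, which had 5. The 71 libraries held between 20971967 and 49700932 reads assigned to genes. Nothing in the labels says which libraries came from the same mouse, and the spread between libraries is the error used throughout.

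GABA-A receptors are chloride channels opened by GABA, the main inhibitory transmitter of the brain, and each receptor is built of 5 subunits around a central pore. Alpha and beta subunits form the GABA binding sites. The alpha subunit also decides much of the receptor's affinity for GABA, its place on the neuron and its response to benzodiazepines. The delta subunit takes the place of the gamma subunit in receptors that lie outside the synapse, pairs mostly with the alpha4 subunit in the forebrain, and carries the steady tonic current that neurosteroids enhance. Medium spiny neurons, the projection neurons of the striatum and NAc, are known for such a current. Receptors with the alpha3 subunit are typical of monoaminergic and other brainstem neurons and of deep cortical layers, and those with alpha5 of hippocampus and deep cortex.

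The genes lie on 5 chromosomes of the mm9 mouse genome, and all are annotated as protein coding. Gabra2 (ENSMUSG00000000560, chr5:71352296-71487088, minus strand) and Gabra4 (ENSMUSG00000029211, chr5:71960973-72049547, minus strand) share a cluster with Gabrb1 (ENSMUSG00000029212, chr5:72091171-72529628, plus strand). Gabra3 (ENSMUSG00000031343) lies at chrX:69678020-69902187 on the minus strand, and Gabra5 (ENSMUSG00000055078) at chr7:64663060-64765379 on the minus strand. Gabrb2 (ENSMUSG00000007653) lies at chr11:42233259-42446092 on the plus strand, and Gabrd (ENSMUSG00000029054), at 13133 bases the shortest of the 7 genes, at chr4:154759089-154772221 on the minus strand. An exon of Gabra5 overlaps Gm9962 on the opposite strand, and because the strand used in counting is not given in the sources used here, reads of that overlap cannot be assigned to either gene. In the mm9 annotation used here, no exon of the other 6 genes overlaps an exon of another gene.

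The annotated gene starts of Gabra4 and Gabrb1 lie 41624 bases apart in mm9 and point away from each other. RefSeq lists a further start of Gabrb1 at position 71657921 of chr5 in GRCm38.p6, which lies inside Gabra4, close to the Gabra4 start at 71658308, so that from it the genes overlap. The window of that further start is not printed. Their sequences are shown because these neighbours had very different profiles across the regions, and that of Gabrb2 because it holds a match to a searched motif. Each is the 250 bases before a RefSeq start site in GRCm38.p6, written 5′ to 3′ on the gene's strand, with a match to a searched motif in capitals.
Gabra4 (chr5:71658309-71658558, minus strand): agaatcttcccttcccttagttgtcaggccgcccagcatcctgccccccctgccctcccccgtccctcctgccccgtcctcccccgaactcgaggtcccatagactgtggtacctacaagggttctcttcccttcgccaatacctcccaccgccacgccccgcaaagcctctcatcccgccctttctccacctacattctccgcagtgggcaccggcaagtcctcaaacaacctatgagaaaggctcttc
Gabrb1 (chr5:71699682-71699931, plus strand): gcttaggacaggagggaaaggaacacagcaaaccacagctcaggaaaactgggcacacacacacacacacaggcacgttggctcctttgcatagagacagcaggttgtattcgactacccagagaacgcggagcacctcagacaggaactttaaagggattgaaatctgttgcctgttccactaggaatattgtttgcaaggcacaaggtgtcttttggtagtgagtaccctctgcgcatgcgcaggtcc
Gabrb2 (chr11:42420190-42420439, plus strand): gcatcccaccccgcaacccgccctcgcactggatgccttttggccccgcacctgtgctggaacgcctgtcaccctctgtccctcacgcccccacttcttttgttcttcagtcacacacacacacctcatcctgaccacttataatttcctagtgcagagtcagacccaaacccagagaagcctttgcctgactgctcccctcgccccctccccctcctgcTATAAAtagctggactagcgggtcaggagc

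RefSeq windows of 300 bases, from 250 before to 50 after a start site, were given for 6 of the 7 genes (10 windows), and were searched on both strands for 4 motifs. The TATA box motif TATAAA was found 30 bases before the first Gabrb2 start and, on the opposite strand, in both overlapping Gabra3 windows; it occurred in 13.6% of all 32851 windows. The NBRE motif AAAGGTCA, to which Nr4a1 binds, was in none of the 10 windows and in 1.51% of all windows. The cAMP response motif TGACGTCA (1.79% of all windows) and the Egr motif GCGTGGGCG (0.612%) were also in none of the 10. These matches describe only the letters of the windows.

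Before the subunits were compared, the dissections were checked against marker genes of their cell types. The summed level of 7 medium spiny neuron markers was between 896 and 2353 RPKM in the NAc libraries. RPKM is the read count scaled by gene length and by the total reads of the library, so that genes can be compared with each other. The same sum was at most 117 RPKM in the VTA, and at most 95.0 RPKM in the PFC except in the library numbered 4 of the saline PFC group at day 28, which held 808 RPKM. Midbrain dopamine neuron markers summed to between 657 and 2611 RPKM in the VTA and to no more than 47.6 RPKM elsewhere. Cortical glutamatergic markers summed to between 474 and 790 RPKM in the PFC, but also reached 287 RPKM in the NAc, where the lowest library held 9.40 RPKM. Since these are pieces of tissue, fewer cells of a type and less RNA per cell cannot be told apart.

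The baseline levels in saline mice differed more between the 3 regions for the alpha and delta subunits than for the beta subunits. The libraries of Gabra2, Gabra3 and Gabra4 still overlapped for a pair of regions each. Gabrd, the delta subunit, had the largest difference of the 7. At day 28 its level in the saline NAc ranged from 43.9 RPKM through a median of 60.1 to 65.6, in the PFC from 18.1 through 21.2 to 36.4, and in the VTA from 0.351 through 0.551 to 1.26. No NAc library overlapped a library of the other regions, and each VTA value rested on between 27 and 138 reads. Gabrd was 91.8-fold higher in the NAc than in the VTA, a log2 difference of 6.52 ± 0.30 (SE; edgeR's quasi-likelihood test, adjusted p = 7.32e-12), which ranked 66 by size among 17181 tested genes. It was 2.38-fold higher in the NAc than in the PFC (log2 difference 1.25 ± 0.21, edgeR adjusted p = 0.000126). The highest PFC library was the one with the medium spiny neuron markers, and without it the log2 difference from the NAc was 1.44 ± 0.19.

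Gabra4, the usual partner of the delta subunit in the forebrain, followed the same order. In saline mice at day 28 it had a median of 40.8 RPKM in the NAc (27.0 to 46.0), 22.6 in the PFC (19.0 to 27.9) and 7.83 in the VTA (4.87 to 10.2). The NAc and VTA libraries did not overlap, while the lowest NAc library lay within the PFC range. The NAc level was 5.79-fold that of the VTA (log2 difference 2.53 ± 0.19, edgeR adjusted p = 3.98e-09) and 1.67-fold that of the PFC (0.74 ± 0.17, edgeR adjusted p = 0.00186). Over the 12 group means of log2(RPKM + 0.1), Gabra4 and Gabrd had a Pearson r of 0.96, the highest of the 21 pairs of the 7 genes. These points share regions and libraries, so r describes the profile and was not tested. Gabrd was at 1.48 ± 0.098 times the RPKM of Gabra4 in the saline NAc at day 28 (SD, n = 6), 1.02 ± 0.18 times in the PFC (n = 6) and 0.106 ± 0.077 times in the VTA (n = 5). At day 1 these ratios were 0.915 ± 0.21, 0.541 ± 0.12 and 0.043 ± 0.016 (n = 6 each), so that Gabrd was not above Gabra4 in the NAc on that day.

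Gabra3 and Gabra5 were instead highest in the PFC. Gabra3 RNA in saline mice at day 28 had a median of 50.8 RPKM in the PFC (35.5 to 52.8), 30.2 in the VTA (21.3 to 31.8) and 18.6 in the NAc (13.9 to 25.5). All PFC libraries lay above those of the other regions, and the VTA and NAc ranges overlapped. The PFC level was 2.61-fold that of the NAc (log2 difference, NAc minus PFC, -1.39 ± 0.15, edgeR adjusted p = 1.08e-06) and 1.97-fold that of the VTA (VTA minus PFC, -0.98 ± 0.15, edgeR adjusted p = 2.89e-05). The difference between NAc and VTA was -0.40 ± 0.15 (edgeR adjusted p = 0.0275); it lost its call when any of 7 of the 17 saline libraries was left out, with adjusted p up to 0.0895, and was -0.13 ± 0.11 in the day 1 libraries (edgeR adjusted p = 0.320). Gabra5 had a median of 26.5 RPKM in the PFC (20.6 to 28.5), 14.7 in the NAc (13.4 to 15.8) and 7.23 in the VTA (5.70 to 12.5), with no overlap between regions. Its PFC level was 1.79-fold that of the NAc (NAc minus PFC, -0.84 ± 0.14, edgeR adjusted p = 0.000117) and 3.45-fold that of the VTA (VTA minus PFC, -1.78 ± 0.15, edgeR adjusted p = 2.23e-08).

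Gabra2, which encodes an alpha subunit common at forebrain synapses, was highest in the NAc with a smaller range. Its medians in saline mice at day 28 were 13.8 RPKM in the NAc (10.8 to 16.4), 8.54 in the PFC (7.68 to 9.95) and 6.60 in the VTA (5.45 to 8.69). Only the VTA and PFC ranges overlapped. Gabra2 was 2.14-fold higher in the NAc than in the VTA (log2 difference 1.10 ± 0.12, edgeR adjusted p = 4.97e-07) and 1.5-fold higher than in the PFC (0.59 ± 0.11, edgeR adjusted p = 0.000469). It was lower in the VTA than in the PFC by a log2 difference of -0.51 ± 0.12 (edgeR adjusted p = 0.0016).

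The beta subunits differed less between regions. Gabrb1 had medians of 10.2 RPKM in the NAc, 10.4 in the VTA and 11.4 in the PFC of saline mice at day 28, and its ranges overlapped for every pair of regions. None of its 3 region differences was called, the largest being -0.37 ± 0.16 between VTA and PFC (edgeR adjusted p = 0.0513). That difference was called when any of 9 of the 17 libraries was left out (edgeR adjusted p down to 0.0206). In the day 1 libraries it was called by edgeR (adjusted p = 0.00397) and not by limma (adjusted p = 0.163). Its neighbour Gabra4 differed 5.79-fold between NAc and VTA, against 1.18-fold for Gabrb1 (log2 difference 0.24 ± 0.16, edgeR adjusted p = 0.200). Gabrb2 had medians of 22.1 RPKM in the NAc, 25.6 in the VTA and 31.9 in the PFC. It was lower in the NAc than in the PFC (-0.48 ± 0.17, edgeR adjusted p = 0.0298), a call that was lost when any of 7 of the 17 libraries was left out (adjusted p up to 0.0741) and in the day 1 libraries (adjusted p = 0.484).

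By count, 5 of the 7 genes were called between NAc and VTA at day 28 (4 higher and 1 lower in the NAc), where 62.5% of all tested genes were called (29.8% higher, 32.6% lower). The libraries of 4 of the 7 did not overlap, against 40.2% of all genes. Between NAc and PFC, 6 of 7 were called (3 higher and 3 lower in the NAc), against 40.7% of all genes (20.0% and 20.7%), and 4 did not overlap, against 28.3%. Between VTA and PFC, 5 of 7 were called, all lower in the VTA, against 57.8% of all genes (29.8% higher, 28.1% lower), and 4 did not overlap, against 37.4%. The median log2 difference over the 7 genes was 0.95 for NAc minus VTA, -0.14 for NAc minus PFC and -0.98 for VTA minus PFC, while over all tested genes it was -0.03, 0.02 and 0.02. Each region came from its own deposited table, so a difference between the tables and one between the regions cannot be told apart.

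**Figure D1:**
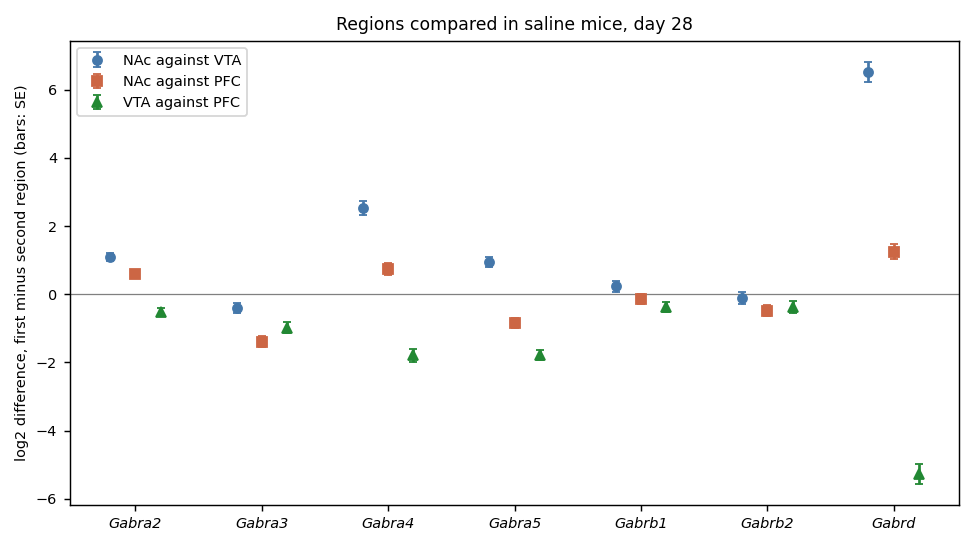
Log2 differences between regions in saline mice at day 28 for the 7 subunit genes (points; bars are the SE of edgeR's fit over 17 libraries). Gabrd lies at 6.52 for NAc against VTA and at -5.27 for VTA against PFC, while the points of Gabrb1 and Gabrb2 all lie within 0.5 of 0.

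The comparison between VTA and PFC was repeated in other mice, the saline groups at day 1, with limma on log2(RPKM + 0.1). Of the 7 genes, 5 were again called lower in the VTA, where 66.7% of 14858 tested genes were called (40.9% higher, 25.8% lower). The libraries of these 5 did not overlap between the regions, against 45.7% of all genes, and the median over all genes was 0.12. Gabrd was 33.6-fold lower in the VTA (log2 difference -5.07 ± 0.14, limma adjusted p = 7.3e-12). The size of this difference depended on the offset for its low VTA level, at -3.59 ± 0.08 with a pseudocount of 1 and -5.51 ± 0.15 by edgeR on recovered reads. Gabra5 was 4.05-fold lower (-2.02 ± 0.13, limma adjusted p = 3.02e-08) and Gabra4 3.25-fold lower (-1.70 ± 0.16, limma adjusted p = 7.1e-07). Gabra2 was 1.73-fold and Gabra3 1.68-fold lower. Gabrb1 differed by -0.14 ± 0.08 (limma adjusted p = 0.163) and Gabrb2 by 0.10 ± 0.19 (limma adjusted p = 0.654), and both had overlapping library ranges.

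**Figure D2:**
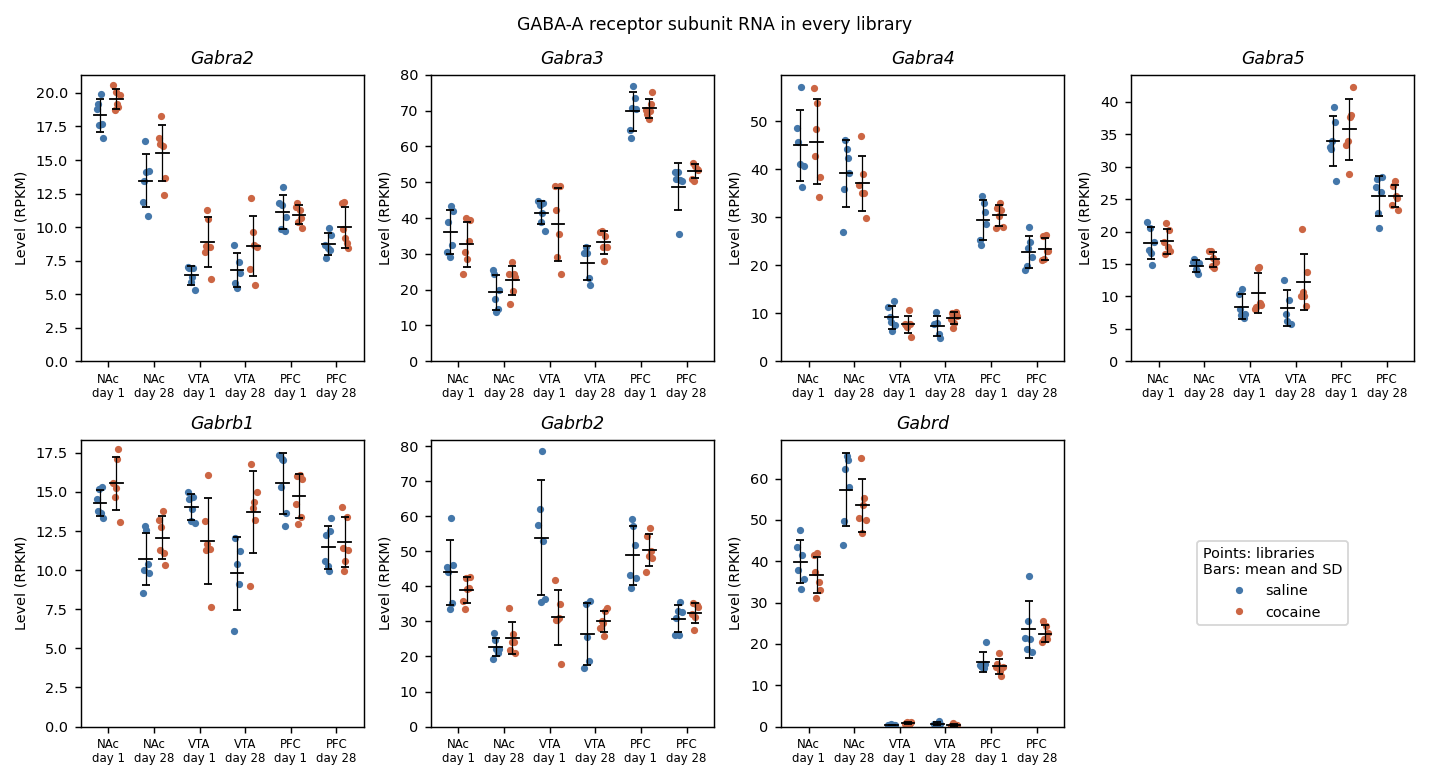
Level of each subunit RNA in RPKM (vertical axes from 0) in every library, by region and day, for saline and cocaine mice; points are libraries, bars the mean and SD. Gabrd is between 0.234 and 1.26 RPKM in the VTA libraries and above 31 RPKM in every NAc library, and the cocaine and saline points of each panel overlap.

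The order of the 7 RNAs within a region was read per length of gene. In the saline VTA, Gabra3 and Gabrb2 led at both days. At day 28 they were at 27.3 ± 4.78 RPKM and 26.3 ± 8.89 RPKM (SD, n = 5), which did not differ beyond their spread. They lay above all libraries of the next gene, Gabrb1 (9.79 ± 2.34 RPKM). Gabrb1, Gabra5, Gabra4 and Gabra2 could not be ranked against their neighbours, and Gabrd was last at 0.667 ± 0.355 RPKM, below every library of Gabra2. In the saline NAc at day 28 the first place was held by Gabrd (57.3 ± 8.76 RPKM, n = 6), followed by Gabra4 (39.1 ± 6.94), and all Gabra4 libraries lay above those of Gabrb2 (22.7 ± 2.58). At day 1 the NAc order differed, with Gabra4 (44.9 ± 7.31), Gabrb2 (44.02 ± 9.29), Gabrd (39.9 ± 5.26) and Gabra3 (36.0 ± 6.18 RPKM, n = 6) not separated beyond their spread. In the PFC Gabra3 was first at both days, at 69.8 ± 5.48 RPKM at day 1 and 48.8 ± 6.62 at day 28 (n = 6), with Gabrb2 next.

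As shares of the summed RPKM of the 7 genes in a library, the saline NAc at day 28 held 32.3% ± 3.25 Gabrd, 21.9% ± 2.43 Gabra4 and 11.1% ± 3.66 Gabra3 (SD, n = 6). The saline VTA at day 28 held 31.7% ± 4.62 Gabra3, 30.1% ± 8.22 Gabrb2 and 0.811% ± 0.519 Gabrd (n = 5). The saline PFC held 28.4% ± 3.70 Gabra3, 17.9% ± 1.73 Gabrb2, 14.9% ± 1.88 Gabra5 and 13.7% ± 4.23 Gabrd (n = 6). In the NAc, VTA and PFC at day 1, the Gabrd shares were 18.7% ± 3.44, 0.294% ± 0.123 and 7.03% ± 1.41 (n = 6 each). The days were deposited as separate tables and are set side by side without a test. A share covers these 7 RNAs and not the whole receptor family, and says nothing of protein.

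**Figure D3:**
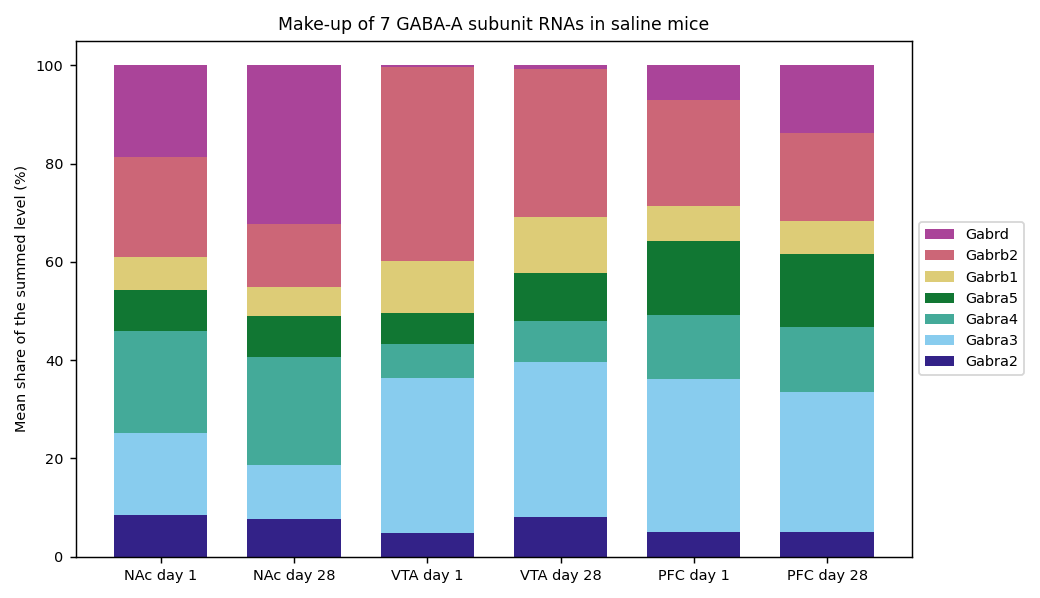
Mean share of each subunit RNA in the summed RPKM of the 7 genes in saline mice (stacked to 100%), for each region and day. Gabrd takes 18.7% and 32.3% of the NAc bars and under 1% of the VTA bars, and Gabra3 takes 28.4% to 31.7% of the VTA and PFC bars.

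The genes closest to each subunit over the 12 group means, among 13585 genes whose mean reached 1 RPKM, were taken by Pearson r of log2(RPKM + 0.1). For Gabrd they were Arhgap10 (r = 0.998), Crym (0.996) and Rin1 (0.996). For Gabra4 they were Slc25a14 (0.995), Dazl (0.993) and Cdk17 (0.993). Hecw1 was closest to Gabra3 (0.991), Atp2b4 to Gabra5 (0.985), Zfp791 to Gabrb2 (0.973) and BC031781 to Gabra2 (0.973). The closest gene to Gabrb1 was Wdr35 with a lower r of 0.908. With 3 regions behind 12 points, such values describe a shared profile over regions.

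Other genes of the inhibitory synapse were compared between regions in the same fits. Of 29 partner genes tested, 13 were higher and 12 lower in the NAc than in the VTA of saline mice at day 28, where 62.5% of all genes were called. Shisa7, which encodes an auxiliary protein of GABA-A receptors, was higher in the NAc by a log2 difference of 2.76 ± 0.14 (edgeR adjusted p = 1.63e-11). Gad1 and Gad2, the enzymes that make GABA, were higher in the NAc by 0.70 ± 0.17 and 1.14 ± 0.19, and Slc32a1, which loads GABA into vesicles, by 0.90 ± 0.19. Slc6a11, a mainly glial GABA transporter, was lower by -2.56 ± 0.19, and Slc12a2, which carries chloride into cells, by -1.43 ± 0.17. Against the PFC, 11 partners were higher and 7 lower in the NAc (40.7% of all genes called), with Gad2 at 1.76 ± 0.18 and Gabbr2, a subunit of the metabotropic GABA receptor, at -1.65 ± 0.12. Between VTA and PFC 12 were higher and 9 lower in the VTA (57.8% of all genes called). Of 8 other GABA-A subunit genes tested, 2 were higher and 5 lower in the NAc than in the VTA, and 5 were higher and 2 lower in the NAc than in the PFC.

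Cocaine was compared with saline within each region and day, the question for which the tissue was collected. None of the 7 genes was called in any of the 6 comparisons at an adjusted p under 0.05. Few genes were called in all. In the NAc 0.0126% of 15878 tested genes were called at day 1 and 0.0% of 16295 at day 28. The VTA had 0.186% of 15042 called at day 1 and 0.0% of 16937 at day 28. The PFC had 0.00693% of 14427 called at day 1 and 0.0% of 16340 at day 28. At an unadjusted p under 0.05, 1 of the 7 genes passed in the NAc at day 1 and 0 at day 28, 3 in the VTA at each day, and 0 and 1 in the PFC at day 1 and day 28. The share of all genes that passed in this way at day 1 and day 28 was 4.01% and 6.76% for the NAc, 15.4% and 11.5% for the VTA, and 4.15% and 5.66% for the PFC. In no comparison did the cocaine and saline libraries of a member lie fully apart. Over all genes this held for 0.214% and 0.301% (NAc), 1.67% and 1.33% (VTA), and 0.159% and 0.233% (PFC). DESeq2, run as an alternative, called 0 of the 7 in every table but that of the VTA at day 1.

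**Figure D4:**
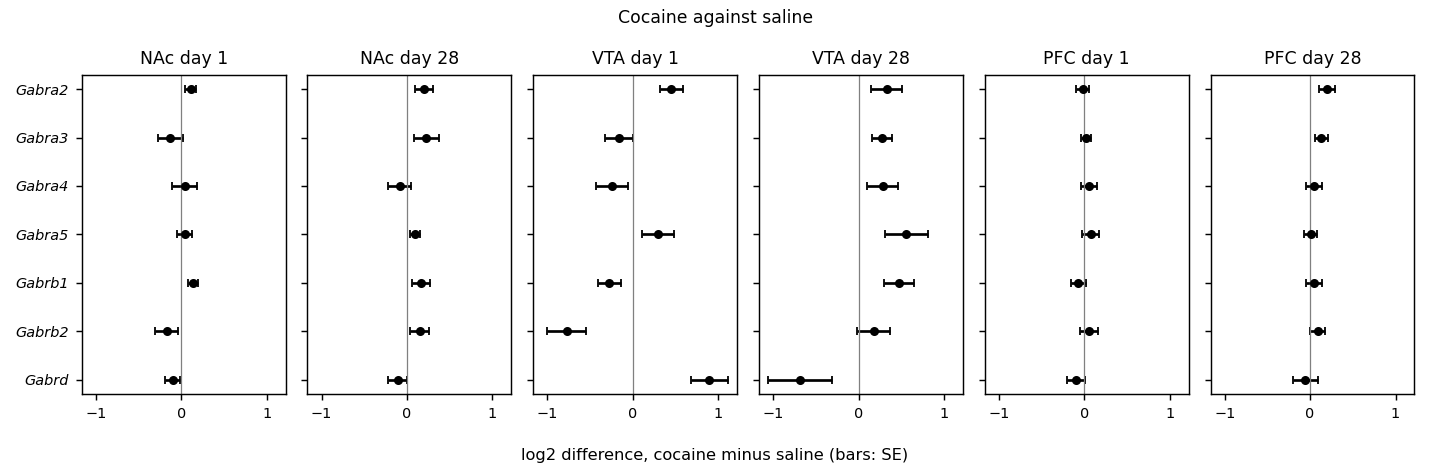
Log2 difference between cocaine and saline mice for each subunit gene in each region and day (points; bars are the SE of the fit, from limma in the VTA and PFC at day 1 and from edgeR elsewhere). The points of the NAc and PFC panels lie between -0.17 and 0.23, and the VTA panels reach 0.90 and -0.78.

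In the VTA at day 1, Gabrd and Gabrb2 had the widest differences between cocaine and saline of all 6 comparisons, and Gabra2 was the third gene there with an unadjusted p under 0.05. Gabrb2 had levels of 57.7, 62.0, 35.5, 78.7, 52.9 and 36.3 RPKM in the saline libraries, and of 41.9, 30.4, 30.5, 31.0, 35.1 and 17.9 RPKM in the cocaine libraries. Of the 6 cocaine libraries, 5 lay below every saline library, and the groups overlapped only through the highest cocaine library. The mean was 31.1 ± 7.84 RPKM with cocaine and 53.9 ± 16.4 with saline (SD, n = 6 each), a log2 difference of -0.78 ± 0.23 (limma adjusted p = 0.170), or 1.71-fold lower. Leaving out each library in turn gave values between -0.88 and -0.63, and none was called.

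Gabrd in the VTA at day 1 was at 0.316, 0.404, 0.514, 0.25, 0.31 and 0.441 RPKM with saline and at 0.513, 0.913, 1.08, 0.445, 0.754 and 1.13 RPKM with cocaine. The 2 lowest cocaine libraries lay within the saline range. These levels rest on 16 to 35 reads with saline and 35 to 76 reads with cocaine, and even the highest is far under the lowest level in the PFC. The log2 difference was 0.90 ± 0.22 (limma adjusted p = 0.117), or 1.86-fold, on the log2(RPKM + 0.1) scale, which understates the change of low genes. With a pseudocount of 1 it was 0.38 ± 0.10 (limma adjusted p = 0.125), and edgeR on recovered reads gave 1.06 ± 0.25 (edgeR adjusted p = 0.0959). The filter asked for a mean of 0.5 RPKM over all 12 libraries, which Gabrd reached through the cocaine group (0.805 RPKM) and not the saline group (0.373 RPKM). Gabra2 was at 6.4 ± 0.695 RPKM with saline and 8.89 ± 1.86 with cocaine (SD, n = 6 each), with 5 of 6 cocaine libraries above every saline library. Its log2 difference was 0.45 ± 0.13 (limma adjusted p = 0.177).

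The calls for these genes depended on the test. DESeq2 on reads recovered from the RPKM called Gabrb2 (-0.84 ± 0.22, DESeq2 adjusted p = 0.0118) and Gabrd (1.06 ± 0.28, DESeq2 adjusted p = 0.0092), among 701 genes in all, 2.95% of those tested. edgeR on the same reads called none of the 7. At a looser threshold, an adjusted p under 0.25, Gabra2, Gabrb2 and Gabrd passed in limma, among 1269 genes in all, 8.44% of those tested. The study's methods set 0.25 for a mean q value in each of many combinations of normalization and model. They also asked for detection by several methods, which a limma fit alone does not rebuild. In shares of the 7 RNAs, Gabrb2 was 28.3% ± 2.61 of the total with cocaine and 39.5% ± 6.25 with saline, and Gabra2 was 8.26% ± 1.57 and 4.84% ± 0.483 (SD, n = 6 each).

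Summed levels of markers of other cell types differed between the treatments in the same VTA libraries, and these sums were not tested. The ranges overlapped for dopamine neuron and cortical markers, and not for microglia markers. Medians of other lists shifted in both directions. They were 145 RPKM with cocaine and 92.0 with saline for interneurons, 76.8 and 95.4 for medium spiny neurons, and 33.5 and 32.0 for oligodendrocyte precursors. For endothelium they were 76.5 and 61.3, and for midbrain GABA neurons 12.1 and 14.3. Choroid plexus markers had medians of 11.7 RPKM with cocaine (2.64 to 179) and 4.90 with saline (3.20 to 62.0). At day 1 the summed level of 10 dopamine neuron markers ranged from 657 RPKM through a median of 1207 to 1553 with cocaine, and from 1091 through 1956 to 2494 with saline. That of 7 cortical glutamatergic markers ranged from 15.6 through 27.9 to 79.4 RPKM with cocaine and from 9.33 through 11.4 to 36.3 with saline, and 8 microglia markers ranged from 128 to 177 RPKM with cocaine and from 189 to 250 with saline. The highest Gabrd levels of the VTA at day 1, 1.08 and 1.13 RPKM, were in the libraries with the highest cortical marker sums, 73.8 and 79.4 RPKM. At day 28 the highest Gabrd level of the VTA, 1.26 RPKM, was in the saline library with the highest cortical marker sum of its table, 89.8 RPKM. A covariate was made from the mean log2(RPKM + 0.1) of the cortical markers, and not from their summed level. Markers whose log2 value was positive in no library were left out of it. With this covariate, the log2 difference at day 1 was 0.34 ± 0.19 for Gabrd (limma adjusted p = 0.948) and -0.20 ± 0.20 for Gabrb2 (limma adjusted p = 0.999). For Gabra2 it was 0.53 ± 0.19 (limma adjusted p = 0.672), and 0.45 ± 0.13 without the covariate. The cortical sums themselves differed between the treatments, and the covariate came from the same markers. The covariate and the treatment thus cannot be fully told apart in these fits. The part of tissue content in the differences was not tested.

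**Figure D5:**
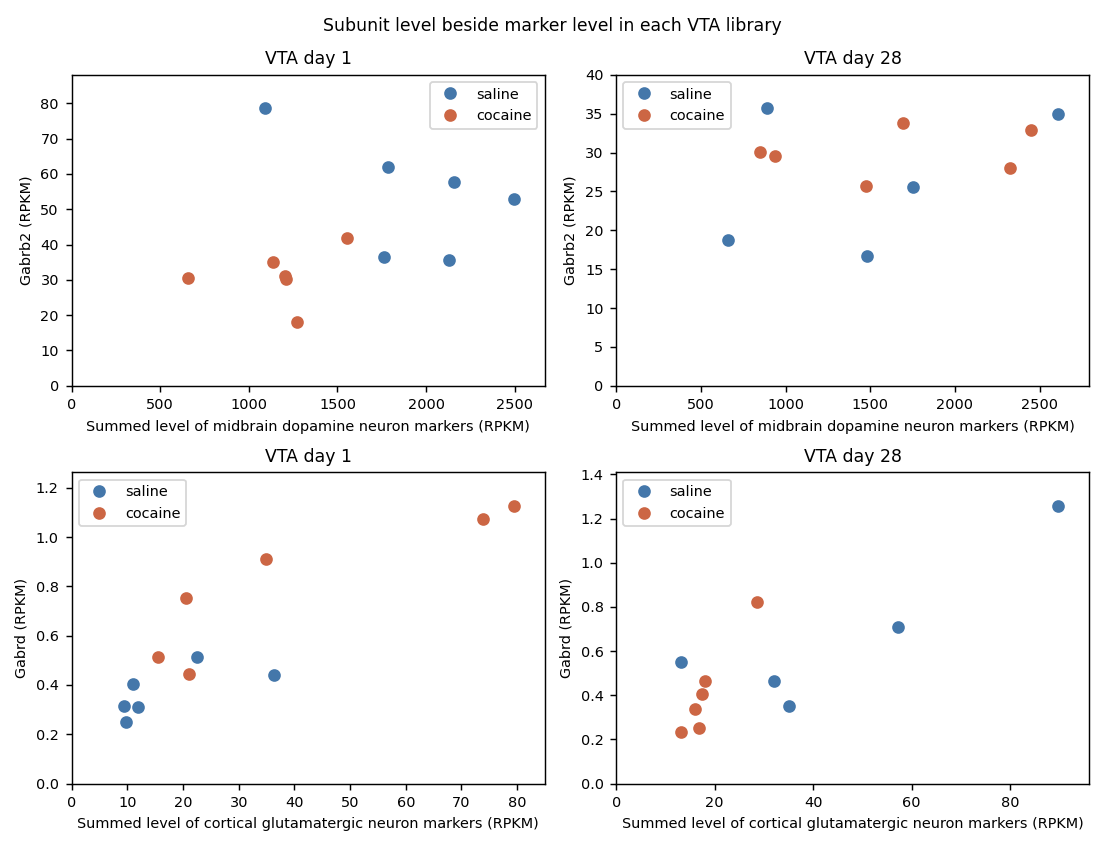
Level of Gabrb2 beside the summed level of dopamine neuron markers (top) and of Gabrd beside that of cortical glutamatergic markers (bottom), in RPKM, for each VTA library at day 1 (left) and day 28 (right). Cocaine libraries at day 1 have dopamine marker sums of 657 to 1553 RPKM against 1091 to 2494 with saline, and the highest Gabrd points lie at the highest cortical marker sums on both days.

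In the VTA at day 28, 6 of the 7 genes had a positive difference and Gabrd a negative one, and none was called. Gabrb1 was at 6.10, 12.1, 10.4, 9.12 and 11.2 RPKM with saline, and at 8.97, 16.8, 13.99, 14.4, 13.2 and 15.0 RPKM with cocaine, so that 5 of 6 cocaine libraries lay above every saline library. Its log2 difference was 0.47 ± 0.18 (edgeR adjusted p = 0.401). Gabra5 had a median of 10.3 RPKM with cocaine (8.54 to 20.3) and 7.23 with saline (5.70 to 12.5), a log2 difference of 0.56 ± 0.25 (edgeR adjusted p = 0.420). Gabra3 was at 33.2 ± 3.19 RPKM with cocaine (SD, n = 6) and 27.3 ± 4.78 with saline (n = 5), with a difference of 0.27 ± 0.12 (edgeR adjusted p = 0.417). Gabrd was at 0.419 ± 0.217 RPKM with cocaine and 0.667 ± 0.355 with saline, a difference of -0.68 ± 0.38 (edgeR adjusted p = 0.476). With the cortical covariate the Gabrd difference was -0.10 ± 0.45, and that of Gabrb1 was 0.73 ± 0.22. In this table the cortical marker sums ran from 13.1 to 28.5 RPKM with cocaine and from 13.2 to 89.8 with saline. For Gabrd, leaving out each library in turn gave differences between -0.99 and -0.33. The value of -0.33 (edgeR adjusted p = 0.725) was that without the saline library that held 89.8 RPKM. Markers of other cells were lower with cocaine in the same libraries. All 6 oligodendrocyte markers had a negative difference, and their sums ran from 2535 to 4547 RPKM with cocaine and from 3657 to 7093 with saline. All 8 microglia markers (sums of 128 to 195 against 173 to 317 RPKM), all 5 endothelial markers (65.0 to 98.3 against 71.2 to 164) and all 4 midbrain GABA neuron markers (4.27 to 12.2 against 8.00 to 18.8) also had negative differences. Of 10 dopamine neuron markers 9 had a positive difference. Their sums overlapped, at 848 to 2451 RPKM with cocaine and 661 to 2611 with saline. Over all tested genes the median log2 difference was -0.03. No marker of these lists was called, and the part of these cells in the subunit differences was not tested.

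The difference between the effects at day 1 and day 28 in the VTA was tested as an interaction of treatment and time. With a pseudocount of 0.1 the largest interactions were those of Gabrd (1.44 ± 0.39, day 1 minus day 28, limma adjusted p = 0.235), Gabrb2 (-1.02 ± 0.32, limma adjusted p = 0.253) and Gabrb1 (-0.77 ± 0.24, limma adjusted p = 0.266). With a pseudocount of 1 that of Gabrd was 0.60 ± 0.17, below the size of the others, and edgeR on recovered reads and counts gave 1.76 ± 0.47. No gene of the 15149 tested was called by limma, 0.0% of them. An unadjusted limma p under 0.05 was reached by 5 of the 7 genes and by 13.3% of all genes. In the NAc and PFC none of the 7 interactions was called, with log2 values between -0.36 and 0.12 in the NAc and between -0.21 and 0.07 in the PFC. There 3 of 16612 genes were called in the NAc (0.0181%) and 2 of 14566 in the PFC (0.0137%).

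In the NAc the differences between cocaine and saline were small. At day 1 they ran from -0.17 ± 0.14 for Gabrb2 to 0.14 ± 0.06 for Gabrb1, and every member's groups overlapped. The gene with an unadjusted p under 0.05 was Gabrb1, at 15.6 ± 1.69 RPKM with cocaine and 14.3 ± 0.837 with saline (SD, n = 6 each; edgeR adjusted p = 1.00). Gabrd was at 36.7 ± 4.38 RPKM with cocaine and 39.9 ± 5.26 with saline, a log2 difference of -0.10 ± 0.09. At day 28 the differences ran from -0.11 ± 0.11 for Gabrd to 0.23 ± 0.15 for Gabra3, and the smallest adjusted p was 0.781 in edgeR. Gabra4 was at 37.0 ± 5.69 RPKM with cocaine and 39.1 ± 6.94 with saline, and its ratio to Gabrb1 was 3.09 ± 0.542 and 3.65 ± 0.334 (SD, n = 6 each).

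In the PFC at day 1 the differences ran from -0.10 ± 0.10 for Gabrd to 0.07 ± 0.10 for Gabra5, with limma adjusted p of 0.918 or more. At day 28 Gabra2 was at 9.99 ± 1.51 RPKM with cocaine and 8.73 ± 0.822 with saline (SD, n = 6 each), a log2 difference of 0.20 ± 0.09 (edgeR adjusted p = 0.842). Gabra3 was at 53.1 ± 2.03 RPKM with cocaine and 48.8 ± 6.62 with saline, a difference of 0.13 ± 0.08, which was 0.06 ± 0.04 without the saline library with medium spiny neuron markers. Gabrd turned from -0.06 ± 0.15 to 0.12 ± 0.09 without that library.

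The partner genes gave the same count as the subunits. None of the 29 was called between cocaine and saline in any of the 6 tables, and none of the 6 to 9 other GABA-A subunit genes tested in each. In the VTA at day 1, 1 partner had an unadjusted p under 0.05 with a higher level and 1 with a lower level in cocaine mice. Of all genes, 15.4% passed at that level there. The lower partner was Slc6a11 (-0.52 ± 0.14, limma adjusted p = 0.128). In the NAc at day 28, 3 were higher and 2 lower at that level, where 6.76% of all genes passed it. In the VTA at day 28, 6 were higher and 1 lower (11.5% of all genes), with Slc12a5, the neuronal chloride exporter, at 0.29 ± 0.07 (edgeR adjusted p = 0.389) and Shisa7 at 0.44 ± 0.13 (edgeR adjusted p = 0.389).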

How the data were processed

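RNA-seq was measured in 71 libraries of 3 brain regions. The authors aligned reads with STAR 2.4.1d (per the labels) to mm9 with the Ensembl annotation. The deposited tables hold raw counts of reads per gene for the NAc at day 1 and all regions at day 28, and RPKM values, divided by gene length and library reads, for the VTA and PFC at day 1. The counting tool and strand are not given in the sources used here. The tables also hold the authors' fold changes and p-values, which were not used, and 30 columns that belong to no sample of this series, which were left out.

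Libraries were grouped by their labels. Column names at day 28 give the group but not the sample, so those libraries carry a number within the group only. Counts were tested with edgeR 4.0.16 (filterByExpr with a minimum count of 10 and a total of 15, TMM, quasi-likelihood test) in R 4.3.3. RPKM were tested with limma 3.58.1 on log2(RPKM + 0.1) where the mean reached 0.5 RPKM. All tests covered every gene that passed the filter, with Benjamini-Hochberg adjustment and a threshold of 0.05. All 7 genes passed in every comparison. The SE of an edgeR value was taken from its F statistic. Region contrasts at day 28 used 1 model over the saline counts of all regions. At day 1 the limma contrast of VTA and PFC set RPKM of separately made tables side by side. The edgeR values given for the day 1 libraries came from 1 model of NAc counts with reads recovered from the VTA and PFC RPKM. The interaction was fitted by edgeR in the NAc and by limma on RPKM in the VTA and PFC.

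Whole reads were recovered from the RPKM for 100.0% of 23806 genes in the VTA and 23353 in the PFC (within 0.001 reads). The search picked for each gene the step that makes its reads whole, so this share does not show that the reads are right. For 139 genes in the VTA and 144 in the PFC the reads were rescaled by a whole factor taken from the other region. In simulated data 3963 of 3965 genes were recovered. The gene lengths that the recovered reads imply turned all counts into RPKM for levels and shares. The p-values measure the spread between libraries, which the labels do not tie to separate mice. No pair of libraries in a table held identical values.

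The 7 genes, the partner list, the marker lists and the rule for similar genes (the 3 with the highest r) were chosen with earlier results of these data known. Partner genes and other subunits were given as counts, and partners named from those that passed, or as examples at an unadjusted p where none did. Alternatives were DESeq2 1.42.0, its size factors, no filter, a pseudocount of 1, count tests on recovered reads, the replicate number as a block, a threshold of 0.25, a cortical marker covariate, other gene lengths and leaving out each library. The day 1 libraries for the region contrasts were added after seeing the data. Simulated data were used to check edgeR between treatments, between NAc and VTA and for the NAc interaction, and limma between treatments. The limma interaction, the limma region contrast, the model of all regions, DESeq2 and the covariate and block fits were not checked in this way. Python 3.11.15 and matplotlib 3.10.9 were also used.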

Additional observations from a re-analysis of the deposited data

Results flagged for a closer look

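In 84 combinations of a gene and a group, 2 held a library far from the rest of its group, and chance gives such a library in about 1 of 20 groups. Gabra3 was at 35.5 RPKM in the saline PFC library numbered 4 at day 28, while the other 5 libraries lay close together up to 52.8 RPKM. The same library held the highest medium spiny neuron marker sum of the PFC, 808 RPKM, and the lowest cortical sum, 474 RPKM. Gabrd was at 20.5 RPKM in saline replicate 6 of the PFC at day 1, above the other 5 libraries, whose lowest was 14.1 RPKM. The part of tissue content in this second value was not tested.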

How the results depend on the processing

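The 0 members called between cocaine and saline held in every table under every alternative except in the VTA at day 1. There 2 genes were called by DESeq2 on recovered reads, 3 at an adjusted p under 0.25, and 1 (Gabrd, limma adjusted p = 0.0397) with the replicate number as a block, which called 13 genes against 28 without it. The block changed no other call. Same-numbered cocaine and saline libraries at day 1 share only a number, with correlations of their deviations from -0.58 to 0.67 in the NAc, -0.31 to 0.49 in the VTA and -0.19 to 0.12 in the PFC, and 4 of 12 VTA, 3 of 12 NAc and 0 of 12 PFC libraries closest to their own number. No block was possible at day 28, because the columns carry no sample number. All genes called numbered 20 (NAc at day 1), 18 (NAc at day 28), 73 (VTA at day 28) and 2 (PFC at day 28) with DESeq2 against 2, 0, 0 and 0 in edgeR, and none of the 7 genes was among them. In the VTA at day 1, edgeR on recovered reads called 55 genes, the analysis without a filter 2 and the covariate 0, against 28.

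Without length scaling, the share of Gabrd in the saline NAc at day 28 was 23.3%, of Gabra3 in the PFC at day 1 26.8% and in the VTA at day 28 25.4%, and of Gabrb2 in the VTA at day 1 59.2%. With the cortical covariate the sign turned for Gabra3 in the VTA at day 1 (0.10), Gabra4 in the VTA at day 28 (-0.0074), and Gabra5 (-0.032) and Gabrd (0.074) in the PFC at day 28. DESeq2's size factors turned the NAc interaction of Gabrd (0.00092), and the day 1 libraries the VTA to PFC difference of Gabrb2 (0.029). Gabrb1 between VTA and PFC was called by DESeq2 at day 28 (DESeq2 adjusted p = 0.0493), in the day 1 libraries (edgeR adjusted p = 0.00397) and when any of 9 libraries was left out. In the limma comparison at day 1 it was called with 1 library left out (limma adjusted p = 0.0457), and under 1 other setting. Gabrb2 between VTA and PFC at day 28 (-0.37 ± 0.18, edgeR adjusted p = 0.0875) was called when either of 2 libraries was left out (edgeR adjusted p down to 0.0226).

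Leaving out 1 library turned the sign of differences near 0 only, none of them called. Between cocaine and saline the ranges were -0.040 to 0.14 for Gabra4 and -0.022 to 0.092 for Gabra5 in the NAc at day 1. In the PFC at day 1 they were -0.058 to 0.024 for Gabra2, -0.011 to 0.049 for Gabra3 and -0.00074 to 0.12 for Gabrb2. In the PFC at day 28 they were -0.0032 to 0.12 for Gabra4, -0.043 to 0.040 for Gabra5, -0.0066 to 0.087 for Gabrb1 and -0.13 to 0.12 for Gabrd. The interaction ranged from -0.10 to 0.028 for Gabrb1 and -0.056 to 0.069 for Gabrd in the NAc. In the PFC it ranged from -0.052 to 0.059 for Gabra4, -0.085 to 0.031 for Gabrb2 and -0.21 to 0.0080 for Gabrd. For Gabrb2 the NAc to VTA difference ranged from -0.25 to 0.018, and that between VTA and PFC at day 1 from -0.021 to 0.21.

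The reads behind Gabrd in the VTA, 16 to 138 per library, limit what can be said of its change there.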
